A study of Homo sapiens with 5 samples.

Results

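The mRNAs of 10 transcription factors and cofactors of the red cell lineage, *GATA1*, *GATA2*, *ZFPM1*, *TAL1*, *LMO2*, *LDB1*, *KLF1*, *NFE2*, *GFI1B*, and *MYB*, were measured in TF-1 cells with and without knockout of *MTSS1*. The genes were chosen by name, and all 10 were found among the 27328 Ensembl genes of the count table. TF-1, an established human AML line of erythroid character, grows with GM-CSF and retains a response to erythropoietin. There were 2 control libraries, from sgCtrl pools 1 and 2, in which Cas9 was delivered with an sgRNA against *Renilla luciferase*, while knockout pools 1, 2, and 3 received sgMTSS1_1, sgMTSS1_2, and sgMTSS1_3, in that order, and gave 1 library each. All 5 pools carry a lentiviral Cas9 vector, and each consists of 4 single-cell clones. The knockout clones were checked by immunoblot in the study, and with 1 pool per sgRNA an effect of the sgRNA cannot be told apart from one of the clones. The comparison asks whether the factors that set the erythroid program of these cells changed with the loss of MTSS1, an actin-associated membrane protein.

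The 10 proteins work together. GATA2 maintains progenitors and is replaced on chromatin by GATA1 as red cells mature, and *ZFPM1* encodes FOG1, the cofactor that GATA1 needs for many of its targets. TAL1 binds DNA beside GATA1, and LMO2 and LDB1 bridge these proteins and bring distant enhancers to promoters. KLF1 and NFE2 activate globin and other red cell genes, GFI1B represses genes of earlier stages, and MYB keeps erythroid progenitors dividing.

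Levels are given in CPM, the counts of a gene over the normalized total of the tested genes in its library. The totals were normalized with TMM, which scales them so that most genes have like levels in all libraries. The libraries were made with a QuantSeq 3′ kit, so that about 1 read is expected per mRNA molecule whatever its length, and levels of different genes were compared without a length correction. In such bulk samples, fewer cells that express a gene and less RNA per cell cannot be told apart. A gene was called differentially expressed where edgeR's quasi-likelihood test gave a p-value under 0.05 after Benjamini-Hochberg adjustment over all 14391 tested genes and its level changed more than 2-fold, that is, by more than 1 on the log2 scale. All log2-fold changes are knockout minus control.

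Total counts were between 2849979 and 3408827 in the control libraries and between 5442639 and 8854899 in the knockout libraries, so that every knockout library was deeper than both control libraries, and an effect of depth cannot be told apart from one of the knockout. Thinned to the smallest library, *LMO2* and *LDB1*, the factors with the largest changes, had log2-fold changes of 1.15 and −1.15 (adjusted p = 0.0904 and 0.0838 from edgeR). No factor was called, but none was called in the main test either, so that thinning could not remove a call. Ribosomal protein genes took 7.55% and 9.30% of the counts in the control and 11.9% to 17.7% in the knockout libraries, and mitochondrially encoded genes 8.63% and 13.9% against 6.71% to 7.44%. Whether these shares had a part in the results below was not tested. The mRNA of *MTSS1* itself was at 204 and 87.9 CPM in sgCtrl pools 1 and 2 and at 104, 139, and 49.9 CPM in knockout pools 1, 2, and 3. The groups overlapped, so that this mRNA does not check the labels. *NDUFB9*, on the opposite strand and with 708 to 6192 counts, covers the 3′ end of *MTSS1*. The use of strand in counting is not known, so that the count of *MTSS1* is uncertain.

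The lineage of the cells was read from marker lists. All 8 progenitor markers of TF-1, including *CD34*, *KIT*, and the erythropoietin receptor gene *EPOR*, were detected. Their summed level was 976 and 977 CPM in the control and 1365 to 1965 CPM in the knockout pools, mostly from *TFRC*, the transferrin receptor gene. *CD34*, a stem and progenitor cell surface marker, was at 132 and 112 CPM in the control and at 214, 345, and 168 CPM in the knockout pools. The megakaryocyte markers, of which 9 of 12 were analysed, summed to 222 and 147 CPM in the control and 245 to 301 CPM in the knockout pools, mostly from *ITGA2B*, an integrin gene, at 120.1 and 83.1 CPM in the control and 193, 239, and 208 CPM in the knockout pools. *GP6*, the platelet collagen receptor gene, was at 70.04 and 31.6 CPM in the control and 18.3, 37.2, and 14.8 CPM in the knockout pools. Markers of granulocytes and monocytes (8 of 12 analysed) summed to 14.3 and 14.7 CPM in the control and 17.4 to 23.3 CPM in the knockout pools. The integrin gene *ITGAM* led them, at 5.94 and 7.45 CPM in the control and 10.3 to 16.1 CPM in the knockout pools, before *CTSG* at 2.09 to 5.58 CPM in all pools. Lymphoid markers (6 of 8 analysed) summed to 8.44 and 14.0 CPM in the control and 4.69 to 9.57 CPM in the knockout pools. Of these, *CD79A* was at 6.25 and 2.38 CPM in the control and 0.519 to 0.903 CPM in the knockout pools. These levels do not show that such cells were present, and the part of these counts in the results was not tested. *MPO*, the myeloperoxidase gene, named as a defining marker after its values were seen, was at 1.49 CPM or less in every library. The markers tested were 8 of progenitors, 6 of megakaryocytes, 2 of granulocytes and monocytes, and 2 of lymphoid cells. The others, *MPO* among them, had too few counts to be tested or were not in the count table. None of the tested markers was differentially expressed by edgeR's test. Its p before adjustment was under 0.05 for *CD34*, *TFRC*, *ITGA2B*, *GP6*, *ITGAM*, and *CD79A*, and for 23.3% of all tested genes. DESeq2 called 1, *ITGA2B*, and limma-voom none.

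**Figure D1:**
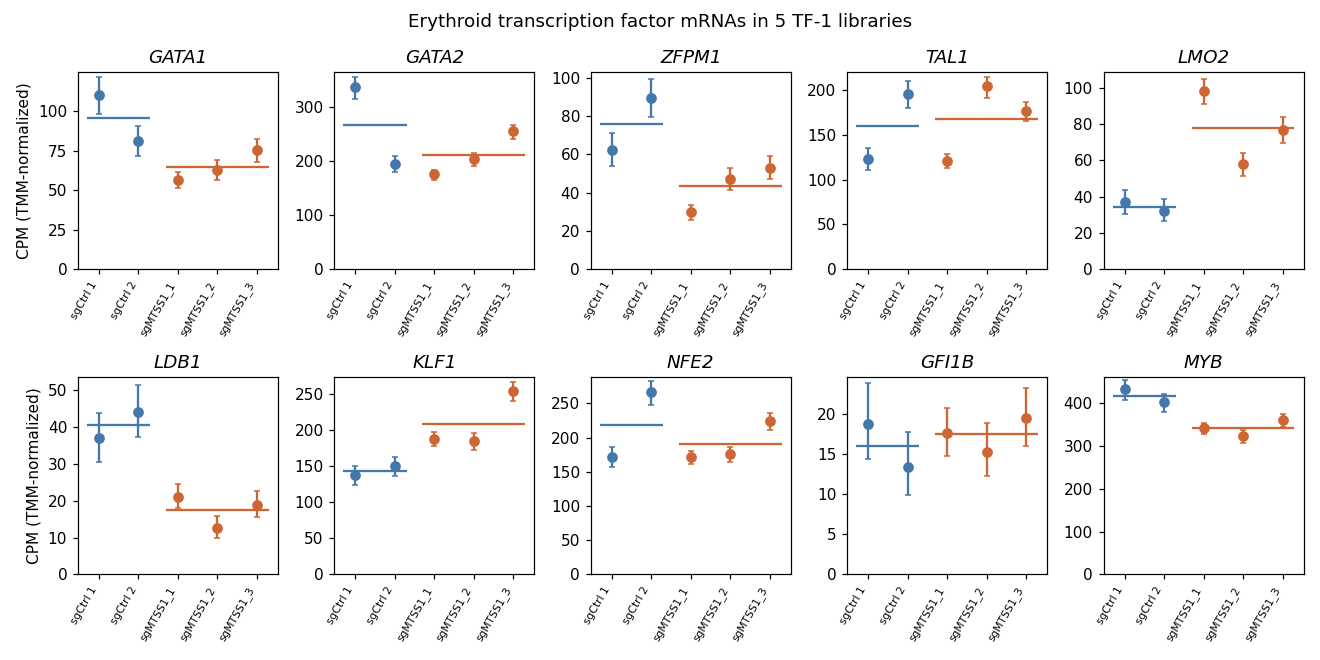
Level of each of the 10 factors in CPM (TMM-normalized, linear axes from 0) in the 2 control pools (blue) and the 3 knockout pools (orange). Points are libraries with 95% Wilson intervals, which cover counting error only, and lines are group means. The groups do not overlap for *GATA1*, *ZFPM1*, *LMO2*, *LDB1*, *KLF1*, and *MYB*.

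All 10 factors were expressed in all 5 libraries, with no fewer than 45 counts in any of them, and all 10 passed the filter on low counts. *MYB* was the most abundant in both groups, with a mean of 418 ± 22.6 CPM (SD, n = 2) in the control pools and 343 ± 18.4 CPM (SD, n = 3) in the knockout pools. In the control pools it was followed by *GATA2*, *NFE2*, *TAL1*, and *KLF1*, and the libraries of each neighboring pair in this order overlapped, apart from those of *MYB* and *GATA2*. *GATA1*, which did not overlap *KLF1*, and *ZFPM1* came next and overlapped each other, as did *LDB1* and *LMO2*, and *GFI1B* was lowest at 16.1 ± 3.78 CPM (SD, n = 2). In the knockout pools, *LMO2* stood above *GATA1* in the order of the means, with overlapping libraries, and *LDB1* stood beside *GFI1B*, each at a mean of 17.5 CPM. The summed level of the 10 factors was 1470 and 1469 CPM in the control pools and 1222, 1289, and 1515 CPM in knockout pools 1, 2, and 3.

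The promoters of the factors can be read beside their levels, because GATA1 and its partners also act on several of these genes. RefSeq windows of 250 bases before to 50 after a start (GRCh38.p14) were found for 8 factors, 11 windows in all, since *GATA2*, *TAL1*, and *GFI1B* have 2 each. No window was read for *LMO2* and *NFE2*. The GATA motif GATAA, on either strand, was in 3 of the 11 windows and in 22.7% of all 35116 windows. The KLF motif CACCC was in 7 of 11 and in 59.9% of all, and the E-box CANNTG, which reads alike on both strands, in 5 of 11 and in 68.7% of all. These are matches of letters and not sites of binding. Shown are the window of *LDB1* (chr10:102114953-102115252, minus strand, within the annotated gene) and of *GATA1* (chrX:48786340-48786639, plus strand), which both hold CACCC but no GATAA, and those of *KLF1* (chr19:12887152-12887451, minus strand) and *TAL1* (chr1:47232286-47232585, minus strand), with 1 and 2 GATAA in capitals, all of them as TTATC, the same motif on the other strand.
LDB1: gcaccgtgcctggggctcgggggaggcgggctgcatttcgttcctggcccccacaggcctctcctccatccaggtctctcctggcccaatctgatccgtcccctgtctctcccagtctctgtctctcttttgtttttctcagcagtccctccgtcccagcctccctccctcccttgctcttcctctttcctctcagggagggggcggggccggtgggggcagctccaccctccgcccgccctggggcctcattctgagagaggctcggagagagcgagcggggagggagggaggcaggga
GATA1: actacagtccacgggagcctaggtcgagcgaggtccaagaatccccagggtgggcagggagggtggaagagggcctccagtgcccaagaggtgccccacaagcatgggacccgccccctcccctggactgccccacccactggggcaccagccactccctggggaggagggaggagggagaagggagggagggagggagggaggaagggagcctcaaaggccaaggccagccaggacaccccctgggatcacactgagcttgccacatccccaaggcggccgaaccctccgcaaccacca
KLF1: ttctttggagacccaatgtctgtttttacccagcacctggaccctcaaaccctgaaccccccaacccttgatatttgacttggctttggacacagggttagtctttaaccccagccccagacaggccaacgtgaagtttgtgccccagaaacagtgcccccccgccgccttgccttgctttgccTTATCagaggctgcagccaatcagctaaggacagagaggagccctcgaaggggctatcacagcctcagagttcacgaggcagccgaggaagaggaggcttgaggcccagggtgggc
TAL1: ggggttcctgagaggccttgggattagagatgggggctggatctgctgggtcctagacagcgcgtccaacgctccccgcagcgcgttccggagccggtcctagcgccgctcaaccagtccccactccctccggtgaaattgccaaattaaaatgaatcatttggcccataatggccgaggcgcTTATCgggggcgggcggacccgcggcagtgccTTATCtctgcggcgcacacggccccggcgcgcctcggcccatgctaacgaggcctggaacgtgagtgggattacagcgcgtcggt
No relation between these motifs and the changes described next was tested over so few genes.

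None of the 10 factors was differentially expressed by edgeR's test, where 5.18% of all tested genes were, 4.17% with higher and 1.01% with lower levels in the knockout. Before adjustment, p was under 0.05 for 3 of them, *LMO2* with a higher and *LDB1* and *ZFPM1* with lower levels, and for 23.3% of all tested genes (14.1% higher and 9.23% lower). DESeq2, the program the authors used, was run anew here, and its calls are not those of the authors. It called *LMO2* and *LDB1* at the same thresholds (adjusted p = 0.0246 and 0.0488), beside 9.49% of the genes to which it gave an adjusted p-value. Limma-voom called none, beside 4.41% of all genes. The 3 knockout pools lay above both control pools for 2 factors, *LMO2* and *KLF1*, and below them for 4, *LDB1*, *ZFPM1*, *GATA1*, and *MYB*. Among all tested genes, 22.2% lay above and 19.2% below, 41.4% in sum. The median log2-fold change of the 10 factors was −0.24, against −0.03 for all tested genes, and 4 factors had values above and 6 below 0. With scaling by library size alone the medians were −0.37 and −0.17.

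*LMO2* (ENSG00000135363, chr11:33858576-33892076 of GRCh38, minus strand), the LIM-only bridge of the complex, had the largest positive log2-fold change of the 10. Its level was 36.9 and 32.2 CPM in sgCtrl pools 1 and 2 and 98.3, 58.0, and 76.7 CPM in knockout pools 1, 2, and 3. Every knockout pool was above both control pools, and knockout pool 1 was highest. Knockout pool 1 was also the deepest library and had the largest share of ribosomal protein counts, and the part of either was not tested. The group means were 34.5 ± 3.33 CPM (SD, n = 2) and 77.7 ± 20.2 CPM (SD, n = 3). The log2-fold change was 1.17 (standard error 0.33, 95% interval 0.42 to 1.91, adjusted p = 0.0743 from edgeR). It was 0.95 (adjusted p = 0.182) without knockout pool 1, and it passed both thresholds with no filter on low counts (adjusted p = 0.0330).

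*LDB1* (ENSG00000198728, chr10:102106489-102120368, minus strand), whose product dimerizes and loops enhancers to promoters, had the largest negative value. It was at 36.9 and 44.1 CPM in the control pools, from 118 and 148 counts, and at 21.1, 12.6, and 18.8 CPM in knockout pools 1, 2, and 3, from 163, 70, and 108 counts. The highest knockout pool was thus below the lowest control pool. The means were 40.5 ± 5.10 CPM (SD, n = 2) and 17.5 ± 4.39 CPM (SD, n = 3). The log2-fold change was −1.20 (standard error 0.33, 95% interval −1.94 to −0.47, adjusted p = 0.0636 from edgeR). It passed both thresholds with scaling by library size alone (adjusted p = 0.0415) and with offsets for GC content and length (0.0464), but not with the offsets and a replicate block together (0.0569) or with no filter on low counts (0.101). Without knockout pool 2 the log2-fold change was −0.98 (adjusted p = 0.195 from edgeR), and without sgCtrl pool 2 it was −1.04 (0.130).

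LMO2 binds LDB1 directly, and the counts of their mRNAs can be set against each other within a library, where the scaling cancels. The *LMO2* to *LDB1* count ratio was 1.0 (95% exact interval 0.768 to 1.3) and 0.730 (0.564 to 0.942) in sgCtrl pools 1 and 2. It was 4.65 (3.92 to 5.54), 4.59 (3.53 to 6.03), and 4.08 (3.30 to 5.09) in knockout pools 1, 2, and 3. The ratio was above 1 in every knockout pool and at or below 1 in both control pools. The geometric means differed 5.19-fold, or by 2.38 on the log2 scale. This pair was chosen after its values were seen, and the ratio is given without a test. Only a scale factor shared by all genes of a library cancels in the ratio, and the intervals show counting error alone. Effects that differ between genes do not cancel. With offsets for GC content and length, the log2-fold changes of *LMO2* and *LDB1* were 0.96 and −1.31. The part of such effects in the ratio was not tested.

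**Figure D2:**
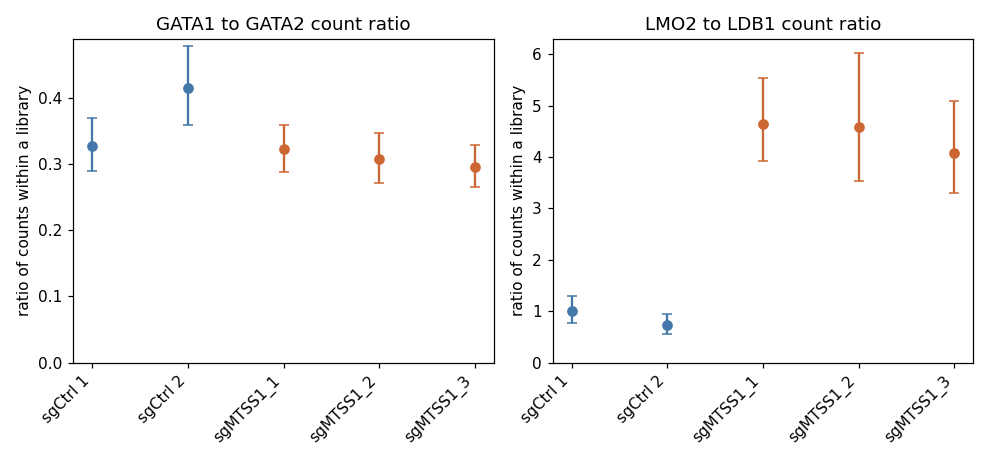
Ratio of the counts of 2 genes within each library (linear axes from 0), *GATA1* to *GATA2* on the left and *LMO2* to *LDB1* on the right, with 95% exact intervals for counting error. The left ratio lies between 0.295 and 0.414 in all 5 libraries, and the right one is 0.730 and 1.0 in the control pools (blue) and 4.08 to 4.65 in the knockout pools (orange).

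*TAL1* (ENSG00000162367, chr1:47216290-47232225, minus strand), the DNA-binding helix-loop-helix member of the same complex, was at 124 and 196 CPM in the control and at 121, 204, and 177 CPM in knockout pools 1, 2, and 3. The control pools lay within the range of the knockout pools. Its log2-fold change was 0.07, with a 95% interval from −0.70 to 0.84 (adjusted p = 0.929 from edgeR), and it was between −0.22 and 0.47 over all settings. A change of *TAL1* as large as the fold threshold lies outside this interval in both directions.

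The GATA factors were read separately and as a ratio. *GATA1* (ENSG00000102145, chrX:48786540-48794311, plus strand), the master regulator of red cell maturation, was at 110.1 and 80.8 CPM in the control pools and at 56.4, 62.6, and 75.2 CPM in knockout pools 1, 2, and 3. No knockout pool reached either control pool, but the gap between the nearest pools was smaller than that between the control pools. The log2-fold change was −0.56 (standard error 0.30, 95% interval −1.22 to 0.10, adjusted p = 0.291 from edgeR), and it was −0.31 without sgCtrl pool 1 and −0.74 without sgCtrl pool 2. *GATA2* (ENSG00000179348, chr3:128479427-128493201, minus strand) was at 337 and 195 CPM in the control and 175, 204, and 254 CPM in the knockout pools, and the groups overlapped. Its log2-fold change was −0.33 (95% interval −1.09 to 0.43, adjusted p = 0.601 from edgeR), and it was 0.13 without sgCtrl pool 1, so that this library sets its sign.

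*GATA2* was more abundant than *GATA1* in every library. The *GATA1* to *GATA2* count ratio was 0.327 and 0.414 in the control pools. It was 0.322, 0.307, and 0.295 in knockout pools 1, 2, and 3. The mean log2 ratio was −1.44 ± 0.24 (SD, n = 2) in the control and −1.70 ± 0.06 (SD, n = 3) in the knockout pools, a difference of −0.26. The knockout pools were lower than both control pools, with an exact two-sided permutation p of 0.2, which is the smallest p that the 10 splits of these libraries allow. The 95% exact intervals of sgCtrl pool 1 (0.289 to 0.369) and of knockout pool 1 (0.288 to 0.359) overlapped, and without sgCtrl pool 2 the difference was −0.08.

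*ZFPM1* (ENSG00000179588, chr16:88453280-88537031, plus strand), which encodes the GATA1 cofactor FOG1, was at 62.5 and 89.4 CPM in the control pools and at 29.7, 47.1, and 53.1 CPM in knockout pools 1, 2, and 3. Every knockout pool was below both control pools. The log2-fold change was −0.81 (standard error 0.34, 95% interval −1.57 to −0.05), and the adjusted p of 0.188 from edgeR did not pass the threshold. It was −0.50 without sgCtrl pool 2 and −0.54 with offsets for GC content and length. The *ZFPM1* transcript has the highest GC content of the 10, at 68.9%.

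*KLF1* (ENSG00000105610, chr19:12884422-12887201, minus strand), the erythroid Krüppel-like factor, was at 138 and 149.9 CPM in the control pools and at 188, 185, and 255 CPM in knockout pools 1, 2, and 3. All knockout pools were above both control pools, which differed little from each other. The log2-fold change was 0.54 (standard error 0.30, 95% interval −0.13 to 1.21, adjusted p = 0.317 from edgeR), and it was positive under every setting tried, between 0.37 and 0.69. *NFE2* (ENSG00000123405, chr12:54292111-54301015, minus strand), a subunit of a basic leucine zipper factor that drives globin and platelet genes, was at 172 and 266 CPM in the control and at 172, 175, and 225 CPM in the knockout pools. The libraries overlapped between groups. The log2-fold change was −0.20 (95% interval −0.91 to 0.51, adjusted p = 0.754 from edgeR), and it was 0.18 without sgCtrl pool 2.

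*MYB* (ENSG00000118513, chr6:135181308-135219173, plus strand) was at 434 and 402 CPM in the control pools and at 342, 325, and 361 CPM in knockout pools 1, 2, and 3. The groups did not overlap, but the log2-fold change was small, −0.29 (standard error 0.29, 95% interval −0.93 to 0.36, adjusted p = 0.595 from edgeR), and between −0.44 and −0.14 over all settings. *GFI1B* (ENSG00000165702, chr9:132944000-132991687, plus strand), a zinc finger repressor, was at 18.8 and 13.4 CPM in the control and at 17.6, 15.3, and 19.5 CPM in the knockout pools. Its groups overlapped, and its log2-fold change was 0.12 (95% interval −0.63 to 0.88, adjusted p = 0.865 from edgeR) and between −0.11 and 0.39 over all settings. The control values rest on 60 and 45 counts.

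**Figure D3:**
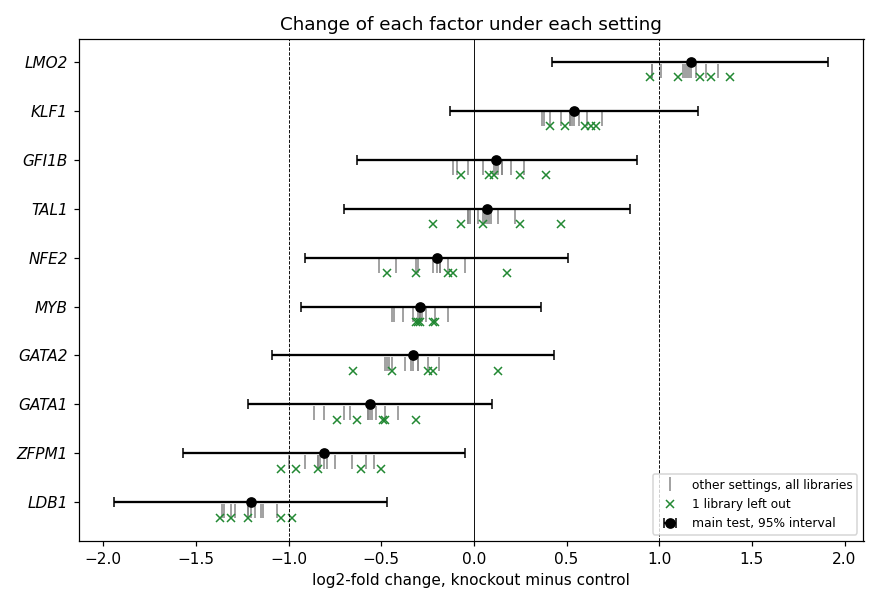
Log2-fold change of each factor (x axis, knockout minus control), ordered by size. Black points are the main test with 95% intervals, gray ticks are the other settings on all libraries, green crosses leave 1 library out, and dashed lines mark log2-fold changes of −1 and 1. Only the intervals of *LMO2*, *LDB1*, and *ZFPM1* exclude 0, and the signs of *GFI1B*, *TAL1*, *NFE2*, and *GATA2* depend on the setting.

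Annotated genes on the opposite strand overlap *GATA2*, *TAL1*, *LMO2*, *NFE2*, *GFI1B*, *ZFPM1*, and *MYB*. Only that at *NFE2*, with at most 4 counts in any library, covers the 3′ end from which the reads come. Among the other genes named in this report, counted genes on the opposite strand also cover the 3′ ends of *GP6*, *BACH1*, *NFE2L2*, *ALAS2*, and *GYPB*. The use of strand in counting is not given in the sources used here, so that these counts are uncertain too.

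The genes that work with the factors were described from lists. The list of 12 other partners of the TAL1 and LDB1 complex holds the E proteins that pair with TAL1, and all were tested. None was differentially expressed by edgeR, where 5.18% of all tested genes were. Before adjustment, p was under 0.05 for 1, *SSBP4*, a relative of the proteins that stabilize LDB1, which DESeq2 called and limma-voom did not. *SSBP4* was chosen for mention after its values were seen. It was at 1.56 and 2.68 CPM in the control and at 9.47, 9.93, and 5.92 CPM in the knockout pools (log2-fold change 1.98, adjusted p = 0.0584 from edgeR). It overlaps *ISYNA1* on the opposite strand at its 3′ end. *LYL1*, a paralog of *TAL1* and the most abundant of the list, was at 199.8 and 174 CPM in the control and at 150.5, 207, and 276 CPM in the knockout pools. *SSBP3*, whose 3′ end *MRPL37* overlaps on the opposite strand, was at 177 and 70.6 CPM in the control and at 89.1, 156, and 151 CPM in the knockout pools. The median log2-fold change of the list was −0.07, and it was 0.07 without sgCtrl pool 1 and 0.02 without knockout pool 1.

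Of 16 corepressor genes used by GFI1B and FOG1, 1 rose and 1 fell, where 4.17% of all tested genes rose and 1.01% fell. *CTBP1*, a corepressor that FOG1 binds, rose from 42.2 and 31.3 CPM to 94.2, 123, and 122 CPM (log2-fold change 1.62, standard error 0.32, adjusted p = 0.0237 from edgeR). *RBBP4*, a histone-binding subunit of NuRD and other complexes, fell from 227 and 250.03 CPM to 72.9, 93.7, and 72.9 CPM (log2-fold change −1.58, standard error 0.28, adjusted p = 0.0186 from edgeR). *RBBP4* has 7 annotated pseudogenes of its name, and since reads that map to several places were removed its count is uncertain. The most abundant genes of the list were *GATAD2A* (log2-fold change −0.24, adjusted p = 0.707) and the deacetylase gene *HDAC2* (0.48, adjusted p = 0.390), both from edgeR. The median of the 16 was −0.13, and it was −0.41 without sgCtrl pool 1 and 0.13 without sgCtrl pool 2. *CTBP1* and *RBBP4* did not pass when any knockout pool was left out, with adjusted p-values of 0.0612 to 0.0776 for *CTBP1* and 0.0548 to 0.0987 for *RBBP4* from edgeR.

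The small MAF, BACH, and cap'n'collar proteins include the partners and competitors of NFE2. Of 8 such genes, 6 were tested, of which 1 rose and the rest did not pass. Of all tested genes, 4.17% rose and 1.01% fell. *MAFG*, a small MAF partner of NFE2, was at 10.3 and 14.3 CPM in the control and at 55.6, 30.9, and 50.6 CPM in the knockout pools (log2-fold change 1.89, standard error 0.38, adjusted p = 0.0259 from edgeR). *SIRT7* overlaps its 3′ end on the same strand, so that the reads of these genes may not have been told apart. Without sgCtrl pool 1, knockout pool 1, or knockout pool 3, the adjusted p of *MAFG* was 0.0501, 0.0970, and 0.0857. *NFE2L2*, which encodes NRF2, was at 124 and 126 CPM in the control and at 102, 84.7, and 92.6 CPM in the knockout pools (adjusted p = 0.388 from edgeR). *BACH1*, a heme-sensitive repressor, was at 62.8 and 51.0 CPM in the control and at 44.8, 40.1, and 44 CPM in the knockout pools (adjusted p = 0.426 from edgeR).

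Of 27 relatives of the factors, 16 were tested, of which 2 rose and the rest did not pass. The shares over all tested genes were 4.17% higher and 1.01% lower. *GFI1*, the paralog of *GFI1B* that is better known from granulocytes and stem cells, was at 6.25 and 5.07 CPM in the control pools and at 27.5, 26.0, and 31.0 CPM in knockout pools 1, 2, and 3. Every knockout pool was above both control pools, and the log2-fold change was 2.31 (standard error 0.36, 95% interval 1.51 to 3.11, adjusted p = 0.0122 from edgeR). *GFI1* was below *GFI1B* in both control pools and above it in all 3 knockout pools. Without knockout pool 1 its adjusted p was 0.0551. *KLF16*, a GC-box-binding relative of *KLF1*, was at 2.81 and 1.49 CPM, from 9 and 5 counts, in the control and at 16.1, 12.1, and 16.4 CPM in the knockout pools (log2-fold change 2.78, standard error 0.47, adjusted p = 0.0156 from edgeR). Its adjusted p was 0.0672 without knockout pool 1 and 0.0530 without knockout pool 3. *MYBL2*, a cell cycle relative of *MYB*, was at 66.9 and 258 CPM in the control and at 85.6, 152, and 124 CPM in the knockout pools. *KLF3*, also listed as an erythroid target, was at 79.1 and 61.1 CPM in the control and 39.6, 45, and 56.4 CPM in the knockout pools (adjusted p = 0.285 from edgeR). The median of the 16 tested was −0.40, and it was −0.14 without sgCtrl pool 1. DESeq2 and limma-voom both called *GFI1*, *KLF16*, *MAFG*, *CTBP1*, and *RBBP4* too, but none of them passed when tested against a fold of 2.

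**Figure D4:**
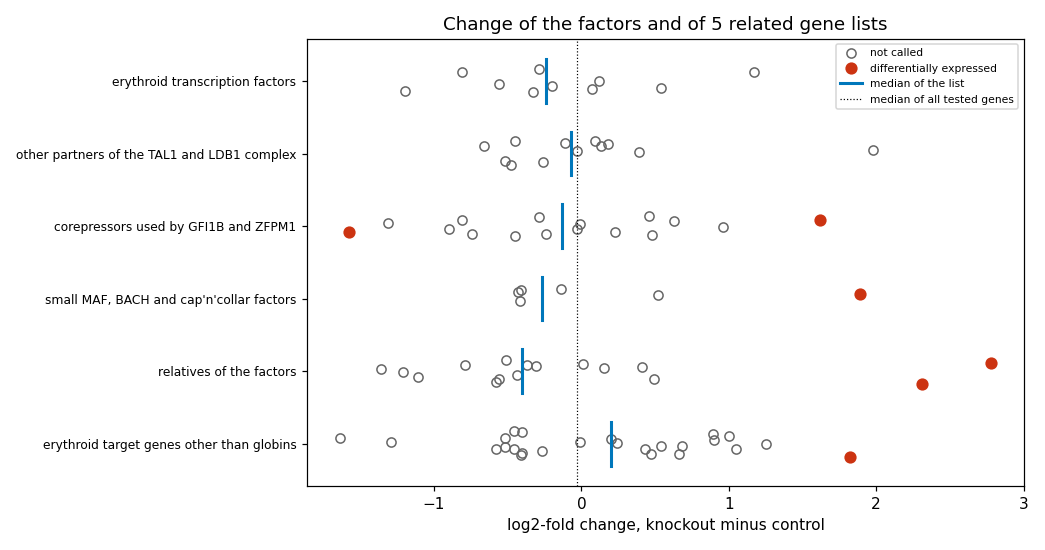
Log2-fold change (x axis, knockout minus control) of each tested gene of the 10 factors and of 5 related lists. Filled red points are differentially expressed, blue bars are list medians, and the dotted line is the median of all tested genes at −0.03. The red points are *RBBP4* at −1.58 and *CTBP1* at 1.62 among the corepressors, *MAFG* at 1.89, *GFI1* at 2.31 and *KLF16* at 2.78 among the relatives, and *TMCC2* at 1.82 among the targets.

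Downstream, 25 of 26 erythroid target genes other than globins were tested. By edgeR only *TMCC2*, a membrane protein gene switched on in erythroblasts, was differentially expressed, with higher levels, as were 4.17% of all tested genes. DESeq2 and limma-voom both called *EPB42* with lower levels (edgeR log2-fold change −1.64, adjusted p = 0.0509). *EPB42*, a red cell membrane skeleton gene, is named here after its values were seen. *TMCC2* was at 8.75 and 5.96 CPM in the control and at 23.9, 36.3, and 18.1 CPM in the knockout pools (log2-fold change 1.82, standard error 0.43, adjusted p = 0.0427 from edgeR). *TMCC2-AS1* overlaps it on the opposite strand. *TMCC2* did not pass without sgCtrl pool 2 (adjusted p = 0.0982), without any of the knockout pools (0.0645 to 0.111), with library size alone (0.0548), or in limma-voom (0.0584). The median of the list was 0.20, and 13 genes had values above and 12 below 0. The sign of this median rests on single libraries, since it was −0.17 without sgCtrl pool 1 and −0.04 without knockout pool 3. *UROD*, a heme synthesis enzyme, was at 855 and 493 CPM in the control and at 1691, 1130.5, and 1209 CPM in the knockout pools (log2-fold change 1.0, adjusted p = 0.165 from edgeR). *TFRC* was at 611 and 638 CPM in the control and at 1538, 750.5, and 1216 CPM in the knockout pools (log2-fold change 0.90, adjusted p = 0.199 from edgeR). For both, every knockout pool was above both control pools, as for 5 of the 25 targets in all, while 3 targets had every knockout pool below and 17 overlapped. The shares over all tested genes were 22.2% above and 19.2% below.

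**Figure D5:**
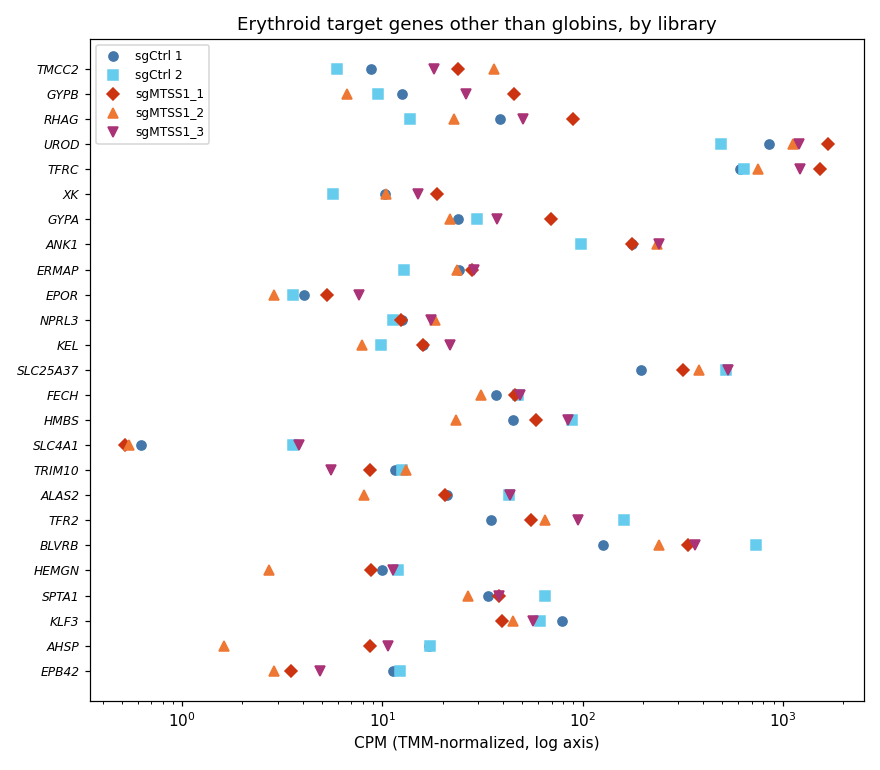
Level of 25 erythroid target genes other than globins (CPM, TMM-normalized, log axis) in each library, ordered by log2-fold change from lowest at the bottom to highest at the top. Symbols are the 5 libraries. Most rows show overlapping groups, and knockout pool 2 (triangles pointing up) is the lowest knockout pool in 17 of the 25 rows.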

How the data were processed

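RNA-seq was performed on 5 pools of TF-1 clones, 2 control and 3 *MTSS1* knockout. The authors prepared QuantSeq 3′ libraries, trimmed adapters, aligned reads to GRCh38 with HISAT2 2.1.0, and kept uniquely mapped reads only, with SAMtools 1.10. They deposited whole-number counts per gene without normalization. A further pool of each group, set aside by the authors as an outlier, was not analysed here. The authors chose it by its distance from the center of its group in the expression data. The spread left within the groups may therefore be understated. The counting program, annotation release, use of strand, and treatment of PCR duplicates are not given in the sources used here. The clones of a pool were combined and grown overnight before RNA extraction, and nothing states that a pool was cultured more than once. The p-values measure the spread between these libraries.

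Counts were analysed with edgeR 4.0.16 in R 4.3.3. Genes kept by filterByExpr (minimum count 10; 14391 of 27328) were normalized with TMM and tested with the quasi-likelihood test for condition alone. CPM are over the TMM-normalized total of the tested genes in a library, and 3 counts correspond to between 0.389 and 0.938 CPM. Wilson and exact intervals cover counting error only. Intervals of log2-fold changes come from the quasi-likelihood fit and include the spread between libraries. Alternatives were DESeq2 1.42.0, limma-voom (limma 3.58.1), other scalings, filters, thresholds, and thinning, GC content and length offsets (mgcv 1.9.3), a block, and each library left out. Positions come from GENCODE release 44. The script was tested on simulated data.

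The factors, gene lists, and named genes were chosen with earlier results of these data known. Named are the 10 factors, *MTSS1*, and in each list the differentially expressed genes and the 2 most abundant, of which 1 is not reported here, and other genes are marked as chosen after their values were seen. Promoter windows come from RefSeq.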

Additional observations from a re-analysis of the deposited data

How the results depend on the processing

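Of 160 recalculated log2-fold changes of the 10 factors, 144 kept their sign and were not called, 5 were called, and 11 changed sign. Of the uncalled, *LMO2* was under the fold threshold at 0.96 with offsets for GC content and length, with or without a replicate block, and at 0.95 without knockout pool 1, *LDB1* at −0.98 without knockout pool 2, and *ZFPM1* was past it at −1.04 without sgCtrl pool 1. The number of factors called, 0 in the main test, was 2 with DESeq2, and 1 each with library size alone (*LDB1*), with no filter on low counts (*LMO2*), and with offsets for GC content and length (*LDB1*). It was 0 with each library left out in turn. Over all genes, DESeq2 called 9.49% of those to which it gave an adjusted p-value. Library size alone called 800 and the offsets 957 of 14391 genes, and with no filter 1374 of 27328 were called. *TAL1* was at −0.03 with library size alone, at −0.02 with the offsets, at −0.03 with the offsets and the block, and at −0.22 and −0.07 without sgCtrl pool 1 or knockout pool 2. *GFI1B* was at −0.03, −0.09, and −0.11 in the first 3 of these settings and at −0.07 without sgCtrl pool 2. *GATA2* was at 0.13 without sgCtrl pool 1, and *NFE2* at 0.18 without sgCtrl pool 2. With 1 library left out, the values ranged from −0.65 to 0.13 for *GATA2*, −0.22 to 0.47 for *TAL1*, −0.47 to 0.18 for *NFE2*, and −0.07 to 0.39 for *GFI1B*. List medians also moved with single libraries, as given with each list, and that of the small MAF list was −0.05 without sgCtrl pool 2 and −0.27 in the main test. The cause was not tested.

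Over all genes, 745 were called in the main test, 1286 with DESeq2, 1374 with no filter on low counts, and 89 when tested against a fold of 2. With 1 library left out the count ranged from 111 (without knockout pool 1) to 1349 (without sgCtrl pool 1), and was 347 and 191 without knockout pool 2 or 3. The share of calls that were higher in the knockout was 80.5% in the main test, 71.0% with library size alone, and 61.8% with the offsets. The difference in summed CPM of the factors, −127 in the main test, was −255 with library size alone, and −214 to −67.2 with 1 library left out. The median of all genes was −0.17 with that scaling and −0.03 in the main test.

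Both groups have pools numbered 1 and 2, and the labels do not say that they mark a shared batch. Deviations from the group means correlated between same-numbered pools with an r of 0.196 and 0.108 over genes, and between sgCtrl pool 2 and knockout pool 3, which share no number, with an r of 0.135. With 2 control pools, the deviations of sgCtrl pool 1 are those of sgCtrl pool 2 with the sign reversed. These r are therefore not independent of each other and cannot show whether a batch was shared. A replicate block gave 1094 called genes and 0 factors, with knockout pool 3 adding nothing to the difference, and a *GATA1* to *GATA2* log2 difference of −0.23 in place of −0.26. It changed no other call among the factors. The *LMO2* to *LDB1* difference, an analysis added after the data were seen, was 2.15 to 2.60 with 1 library left out and 2.30 after thinning. At 45 to 163 counts, *GFI1B* and *LDB1* are among the factors with the widest counting intervals relative to their levels. In sgCtrl pools 1 and 2, *LMO2* rests on 118 and 108 counts, against 118 and 148 for *LDB1*.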

Other observations

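The knockout pools differed among themselves in erythroid target genes. Of the 25 tested targets other than globins, 17 were lowest in knockout pool 2, 6 in knockout pool 1, and 2 in knockout pool 3, where knockout pool 2 was the lowest of the 3 for 31.3% of all tested genes. *AHSP*, the chaperone of alpha globin, was at 8.69, 1.62, and 10.6 CPM in knockout pools 1, 2, and 3. *ALAS2*, the erythroid enzyme that starts heme synthesis, was at 20.5, 8.12, and 43.3 CPM in the same order. *HEMGN* was at 8.82, 2.71, and 11.3 CPM, and *GYPB*, a red cell surface protein gene, was at 45.3, 6.68, and 26.3 CPM. Of the progenitor markers, *CD34* and *CSF2RB* were highest in knockout pool 2. *KIT*, *CSF2RA*, *IL3RA*, *EPOR*, and *CD33* were highest in knockout pool 3, and *TFRC* in knockout pool 1. With 1 pool per sgRNA these differences have no replicates and were not tested, and these genes were chosen for mention after their values were seen.

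The control pools also differed from each other, with no common direction over the targets: 14 of the 25 were higher in sgCtrl pool 2 and 11 in sgCtrl pool 1. *BLVRB*, a heme catabolism enzyme gene, was at 126 and 737 CPM in sgCtrl pools 1 and 2, *TFR2* at 34.7 and 162 CPM, and *ALAS2* at 20.9 and 42.9 CPM. *UROD* differed the other way, at 855 and 493 CPM, as did *GATA2*, at 337 and 195 CPM, while *AHSP* was alike, at 17.2 and 17.3 CPM. These genes were chosen for mention after their values were seen.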
